A study of Mus musculus with 7 samples.

Results

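The DNA replication machinery is the group of proteins that licenses replication origins, unwinds the double helix and copies both strands once in every S phase. Its transcripts were followed here on 87 of the 22690 probe sets of the array, for 47 genes of the 12394 that the annotation names there, taken by gene symbol from the array annotation: the Orc, Mcm, Gins, Rfc, Rpa and Prim families, the subunits of DNA polymerases alpha, delta and epsilon, and Pcna, Cdc6, Cdc45, Cdt1, Gmnn, Fen1, Lig1, Top2a, Top2b, Rrm1 and Rrm2. The choice used symbols alone and no measured value. RNA of 7 whole mouse embryos of the FVB strain, all at E10.5 (mid-gestation), was hybridised to 1 Affymetrix 430A 2.0 array each. The groups were 2 exposed embryos with neural tube defects (NTD), 3 exposed embryos with none identified, and 2 controls from a normal pregnancy. Exposed embryos developed in a dam made diabetic with streptozotocin at an age of 7 to 9 weeks, whose blood glucose stayed above 250 mg/dl between mating and harvest. By the study's account, all 5 exposed embryos were littermates of 1 diabetic dam and both controls came out of 1 untreated pregnancy, so diabetes and litter cannot be told apart in these values, and every p-value is set against the spread between littermates.

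In G1, the origin recognition complex, with Cdc6 and Cdt1, loads the MCM helicase onto DNA, and geminin (Gmnn) later blocks a further round of loading. At the fork, Cdc45 and GINS activate the helicase, polymerase alpha with its primase lays down primers, polymerases delta and epsilon extend them on the PCNA clamp that the RFC complex loads, RPA covers single strands, and Fen1 and Lig1 join Okazaki fragments. Many of these genes are known E2F targets that are transcribed around the entry into S phase, and the embryo at mid-gestation holds large populations of dividing cells.

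Promoter sequences show how the E2F motif is spread over the group. RefSeq promoters of GRCm38.p6, each 300 bases long from 250 before to 50 after the annotated start, were matched by symbol for 40 of the 47 genes. The E2F motif was searched as TTTCCCGC, TTTCGCGC, TTTGCCGC or TTTGGCGC on either strand. A gene was counted when any of its promoters held the motif. This was so for 15 of the 40 member genes (37.5%), 4.07% of 9888 genes on the array and 2.6% of all 27025 genes. Counted by single promoter, 2.26% of all 32851 held it. The 15 genes were Cdc6, Cdt1, Lig1, Mcm3, Mcm5, Mcm6, Mcm7, Orc1, Orc3, Pola1, Pold1, Pold3, Pole2, Pole4 and Rfc3. Counted by gene in the same way, 26 of 40 member genes (65%) and 42.3% of genes on the array held a CCAAT box (CCAAT on either strand). The CHR motif (TTTGAA or TTCGAA) was held by 7 of 40 member genes (17.5%) and by 17.3% of genes on the array. A match describes letters in a window and is no evidence of binding. Below, 3 promoters with E2F motifs (in capitals, some on the other strand) stand beside 3 in which these letters were not found, all of them genes described later. Mcm3 lies on the minus strand at chr1:20820263-20820562, Mcm6 on the minus strand at chr1:128359656-128359955, Rfc3 on the minus strand at chr5:151651159-151651458, Pcna on the minus strand at chr2:132253131-132253430, Top2b on the plus strand at chr14:16364956-16365255 and Rrm1 on the plus strand at chr7:102441445-102441744. Mcm6 carries 3 matches, of which 2 overlap and are printed as 1 run of capitals.
Mcm3: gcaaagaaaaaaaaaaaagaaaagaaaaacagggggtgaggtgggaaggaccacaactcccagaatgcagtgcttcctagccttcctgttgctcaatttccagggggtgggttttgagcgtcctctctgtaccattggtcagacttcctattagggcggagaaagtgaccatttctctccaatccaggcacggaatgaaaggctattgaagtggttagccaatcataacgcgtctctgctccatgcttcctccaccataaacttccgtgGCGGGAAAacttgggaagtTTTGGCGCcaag
Mcm6: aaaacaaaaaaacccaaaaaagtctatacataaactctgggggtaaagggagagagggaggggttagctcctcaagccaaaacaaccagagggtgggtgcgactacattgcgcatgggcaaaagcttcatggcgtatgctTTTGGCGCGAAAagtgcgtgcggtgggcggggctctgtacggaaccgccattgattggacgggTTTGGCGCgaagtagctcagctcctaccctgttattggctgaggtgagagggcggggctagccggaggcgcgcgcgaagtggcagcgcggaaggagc
Rfc3: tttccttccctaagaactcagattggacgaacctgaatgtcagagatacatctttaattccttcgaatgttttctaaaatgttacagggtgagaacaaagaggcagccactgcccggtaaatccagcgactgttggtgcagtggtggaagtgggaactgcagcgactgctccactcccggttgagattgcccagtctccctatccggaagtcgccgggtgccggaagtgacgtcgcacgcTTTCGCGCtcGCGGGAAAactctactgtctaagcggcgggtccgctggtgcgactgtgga
Pcna: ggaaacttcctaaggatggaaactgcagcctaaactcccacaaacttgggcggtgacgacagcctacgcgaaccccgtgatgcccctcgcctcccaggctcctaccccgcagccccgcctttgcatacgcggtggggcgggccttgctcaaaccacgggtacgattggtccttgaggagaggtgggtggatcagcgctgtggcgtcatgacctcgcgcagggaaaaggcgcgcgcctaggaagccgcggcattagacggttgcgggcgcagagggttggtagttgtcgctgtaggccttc
Top2b: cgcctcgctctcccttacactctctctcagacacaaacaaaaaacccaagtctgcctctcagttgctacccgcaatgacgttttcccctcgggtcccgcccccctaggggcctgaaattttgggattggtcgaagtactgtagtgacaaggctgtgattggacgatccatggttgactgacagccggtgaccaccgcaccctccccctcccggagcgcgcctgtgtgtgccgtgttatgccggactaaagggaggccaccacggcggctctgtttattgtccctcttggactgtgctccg
Rrm1: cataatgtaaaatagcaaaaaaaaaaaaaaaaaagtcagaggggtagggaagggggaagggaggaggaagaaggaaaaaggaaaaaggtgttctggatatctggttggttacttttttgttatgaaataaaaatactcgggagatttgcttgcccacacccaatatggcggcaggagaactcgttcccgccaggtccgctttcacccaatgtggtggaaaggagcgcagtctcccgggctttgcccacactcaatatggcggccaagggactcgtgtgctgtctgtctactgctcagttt

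Signals are MAS5 intensities, in arbitrary units on a linear scale, and are listed for exposed embryos 1 and 2 with NTD followed by exposed embryos 1, 2 and 3 without NTD. All arrays were scaled by the authors to nearly the same mean, with medians of 206 to 218. Of the 87 member probe sets, 81 (46 genes) reached the 40th percentile of the array in 2 or more embryos and were tested, and 76 of them did so in all 7. The other 6 were 1 probe set each of Cdt1, Mcm3, Mcm10, Pola2 and Top2a, which have brighter ones, and the only probe set of Mcm9, with signals of 6.85 to 58.8. Passing rested on the controls alone for 1 probe set of Top2b and on exposed embryos alone for 1 of Orc3. Exposed embryo 1 without NTD stood apart from its littermates. Its summed signal of 11 marker genes of yolk sac endoderm and liver, of which 4 were above the 40th percentile in all 7 embryos, was 24735, against 1563 to 2803 in the other exposed embryos and 3494 to 4151 in controls. It was also the highest of the 7 in the sums of 3 decidua markers, 1 of them above that percentile in every embryo (1126, against 481 to 547 in the other exposed embryos and 461 to 499 in controls), and of 5 endothelial markers, 4 of them above it (1926, against 1343 to 1653 and 1523 to 1614). Among these endothelial markers, only Kdr was itself highest there (965, against 383 to 672 in the other exposed embryos and 574 and 592 in controls). Cdh5, Pecam1, Tek and Tie1 were each higher in another embryo. Exposed embryo 1 without NTD was also the highest of the 7 in the erythroid (85120), heart (10874) and neural progenitor (19355) sums. It was the lowest in the neuronal (6888) and trophoblast sums. In this embryo Alb, a yolk sac and liver marker, was 226, below both controls (314 and 426) and exposed embryo 3 without NTD (243). Hand2, a decidua marker, was 88.0 in it, below exposed embryo 2 with NTD (89.7) and control 1 (96.0). Exposed and control embryos also did not overlap in the summed signal of 8 neuronal markers, 7 of them above the 40th percentile in every embryo (6888 to 8633 in exposed embryos, 9960 to 10088 in controls) or of 7 erythroid markers, all of them above it (67025 to 85120 in exposed embryos, 53469 to 55643 in controls). The same held for 6 heart markers, all of them above it (9119 to 10874 in exposed embryos, 8321 to 8607 in controls), and for 7 somite and muscle markers, 4 of them above it and 1 below it in every embryo (2133 to 2549 in exposed embryos, 1896 to 1913 in controls), while the sums for neural progenitors, endothelium, trophoblast, decidua, and yolk sac and liver overlapped. Of the neuronal markers, Stmn2, Nefl, Nefm, Dcx and Map2 were lower in every exposed embryo, and Tubb3, Elavl3 and Isl1 overlapped. Each erythroid marker was higher in every exposed embryo. Of the heart markers, only Myh7 was so (1092 to 1619 in exposed embryos, 1042 and 1024 in controls), and the others overlapped. The somite and muscle difference came with Meox1 (913 to 1100 in exposed embryos, 605 in both controls). Myog went the other way (183 to 244 in exposed embryos, 257 and 260 in controls), and the remaining somite and muscle markers overlapped. Sex-chromosome transcripts ran with exposure too. The summed signal of Xist, which is transcribed from the silenced X of female cells, was 8043 to 11099 in 4 exposed embryos, and 274 in exposed embryo 2 with NTD against 195 to 198 in controls, while the Y-linked genes Eif2s3y, Kdm5d and Uty summed to 163 to 181 in those 4, and to 1092 in exposed embryo 2 with NTD against 1258 to 1288 in controls. With a term for this difference, added after the values were seen, exposed against control rests on exposed embryo 2 with NTD and both controls, and limma called 0 members, with 3 lower and 0 higher at an unadjusted p under 0.05 and a median log2 fold change of -0.01. In RNA of a whole embryo, fewer cells of a type and less RNA per cell cannot be told apart.

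By the median of their probe sets, the replication genes had almost the same signals in exposed and control embryos. None of the 81 probe sets was called in exposed against control embryos by limma at a Benjamini-Hochberg adjusted p under 0.05, beside 0.172% of all 14554 probe sets tested. At an unadjusted p under 0.05, 12 members (14.8%) were lower, beside 8.52% of all probe sets, and 2 members (2.47%) were higher, beside 7.63%. The methods' t-test gave 14 lower and 4 higher at the same unadjusted threshold and 0 after adjustment. Counted by embryo, 16 members (19.8%) were lower in all 5 exposed embryos than in both controls, beside 13.4% of all probe sets, and 5 (6.17%) were higher, beside 11.4%. Only 8 members (9.88%) differed by a log2 fold change of 0.5 or more in either direction, beside 11.6%. The limma count of 12 lower, the 16 and the 8 each include the Top2b probe set that passed the filter on controls alone. The 5 include the Orc3 probe set that passed it on exposed embryos alone. The median log2 fold change was -0.02 over the 81 members, with quartiles of -0.23 and 0.10, and 0.00 over all probe sets, with quartiles of -0.19 and 0.19. Taken by the brightest probe set of each gene, 22 of 46 genes were below and 24 above 0 (47.8% below, beside 44.5% of 8657 genes on the array), and 4 were lower and 2 higher at an unadjusted p under 0.05. The other 8 of the 12 lower probe sets were not the brightest of their gene.

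**Figure D1:**
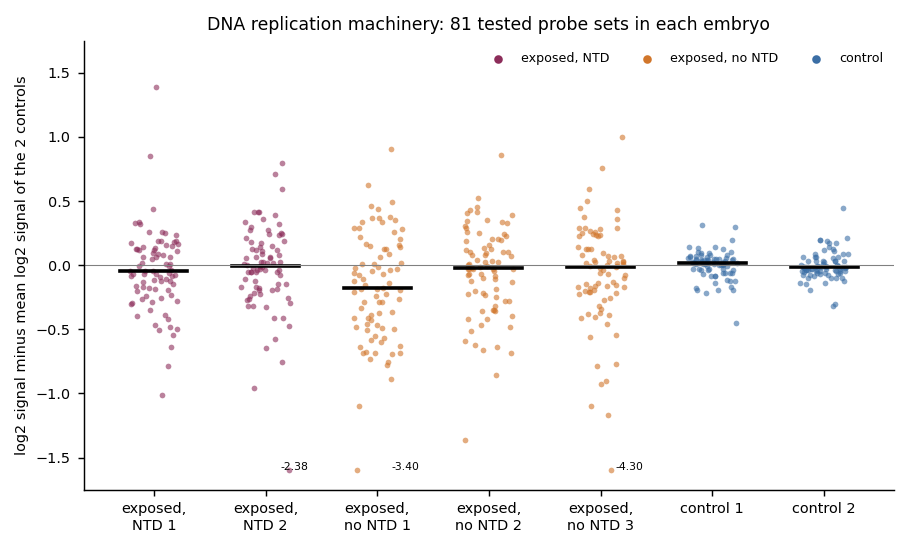
Each point is 1 of the 81 tested member probe sets in 1 embryo, as its log2 signal minus the mean log2 signal of the 2 controls (y axis), with embryos on the x axis and a black bar at each embryo's median. The medians lie between -0.05 and 0.02 in 6 embryos and at -0.18 in exposed embryo 1 without NTD. The control points mirror each other by construction, and 3 points below the axis, all of 1 Top2b probe set, are drawn at its foot with their values.

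Among the exposed embryos, the members varied somewhat less than the array as a whole. The standard deviation of the log2 signal over the 5 exposed embryos had a median of 0.187 over the members and 0.217 over all tested probe sets, while the mean log2 signal had a median of 9.84 over the members and 8.80 over all. Exposed embryo 1 without NTD lay lowest, with a median of -0.18 relative to the controls over the 81 members and 0.01 over all probe sets. It had the lowest signal of the 7 embryos for 30 members (37.0%, beside 20.7% of all probe sets). Member medians of the other exposed embryos were -0.05 and -0.01 with NTD and -0.02 and -0.01 without NTD. Without exposed embryo 1, 12 members were lower and 4 higher at an unadjusted p under 0.05 (limma) and none was called. The part of its differing marker sums, given above for several cell types, in its low member values was not tested.

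Origin recognition genes held 5 of the 12 lower probe sets. Of 16 probe sets for 9 origin and licensing genes, 5 (31.25%) were lower and 0 higher at an unadjusted p under 0.05 by limma, beside 8.52% and 7.63% of all probe sets. All 5 were for Orc2, Orc4 and Orc6. Orc2, a core subunit, had signals of 534, 564, 435, 445 and 554 in exposed embryos, against 652 and 761 in controls, on its brightest probe set (1418226_at). Its log2 fold change was -0.48 ± 0.15 (SE, adjusted p = 0.177 by limma). A dimmer Orc2 probe set (1418227_at) gave 196, 143, 187, 200.4 and 129 in exposed embryos and 278 and 276 in controls, a log2 fold change of -0.72 ± 0.22 (adjusted p = 0.167). On both, every exposed embryo lay below both controls, while the remaining one (1418225_at) overlapped at -0.19 ± 0.17. Orc4, another subunit of the core ring, gave 488, 575, 514, 542 and 364 in exposed embryos and 688 and 698 in controls on its brightest probe set (1453804_a_at, -0.50 ± 0.18, adjusted p = 0.209). Its probe set 1423337_at gave 179, 161, 149, 171 and 175 in exposed embryos and 235 and 245 in controls (-0.52 ± 0.18, adjusted p = 0.193). Neither overlapped between the groups, but a further Orc4 probe set (1423336_at) stood at 0.04 ± 0.21 with overlapping signals. Orc6, the smallest subunit, has 1 probe set, with 798, 831, 904, 823 and 947 in exposed embryos and 1139 and 1069.9 in controls (-0.36 ± 0.12, adjusted p = 0.195), again without overlap. Orc1, Orc3 and Orc5 gave log2 fold changes of 0.06, 0.10 and 0.08 on their brightest probe sets, so the subunits of this complex did not share a direction.

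Of the loading factors, Cdt1 lay above both controls in every exposed embryo, and Gmnn and Cdc6 overlapped. Cdt1, which brings the MCM ring to the origin, had signals of 3284, 3705, 4076, 3999.9 and 3152 in exposed embryos, against 3029 and 2984 in controls, on 1424143_a_at. Every exposed embryo lay above both controls, by a log2 fold change of 0.27 ± 0.13 (adjusted p = 0.326), and the other Cdt1 probe set gave 0.30 ± 0.14 (adjusted p = 0.322), also without overlap. Its inhibitor Gmnn had 1709, 1595, 2124, 1862 and 1621 in exposed embryos and 1718 and 1557 in controls, which overlap (0.12 ± 0.14, adjusted p = 0.713). Cdc6, the loading ATPase, depended on 1 embryo. Its signal was 459 in exposed embryo 1 without NTD, 896, 923, 1073 and 959 in the other exposed embryos and 807 and 764 in controls. The log2 fold change was 0.08 ± 0.27 with that embryo and 0.29 without it (adjusted p = 0.278).

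The MCM genes differed little. Of 16 tested probe sets for 7 genes, none was past an unadjusted p of 0.05 by limma in either direction, beside 8.52% lower and 7.63% higher of all probe sets. Their log2 fold changes ran from -0.28 to 0.30 with a median of -0.01. In Mcm2, part of the helicase ring, 2234, 2344, 2017, 2276 and 2407 in exposed embryos stood against 2652 and 2633 in controls on its brightest probe set (1448777_at). Every exposed embryo lay lower, by -0.23 ± 0.11 on the log2 scale (adjusted p = 0.338). For Mcm3, 2635, 2577, 1907, 2509.9 and 2556 in exposed embryos stood against 3151 and 2754 in controls on its brightest probe set (1420028_s_at), also without overlap (-0.28 ± 0.14, adjusted p = 0.36). Its other tested probe sets overlapped between the groups (-0.14, -0.28 and -0.15). Mcm7 went the other way on its brightest probe set (1438320_s_at), with 9138, 9303, 8617, 8799 and 8048 in exposed embryos and 7923 and 7470.4 in controls, all exposed embryos higher (0.19 ± 0.09, adjusted p = 0.35). The other tested Mcm7 probe sets overlapped between the groups (0.24, 0.01 and 0.05). The other subunits of the ring overlapped between the groups. Mcm4 had 2728, 2413, 2489, 2945 and 2769 in exposed embryos and 2791 and 2697 in controls (-0.04, 95% interval -0.30 to 0.21). Mcm5 had 2028, 2467, 2451, 2412 and 2665 in exposed embryos and 2326 and 2552 in controls (-0.02, 95% interval -0.30 to 0.25). Mcm6 reached 4387 in exposed embryo 3 without NTD, with 2315, 2967, 2546 and 2142 in the other exposed embryos and 2781 and 2429 in controls (0.09, 95% interval -0.42 to 0.61). Mcm10, which is not part of the ring and acts at helicase activation, overlapped as well at 0.18 ± 0.13.

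The remaining parts of the helicase gave small values in the same direction. Cdc45 stood at -0.14 ± 0.15, Gins1 at -0.29 ± 0.16 and Gins4 at -0.13 ± 0.14 on the log2 scale, with adjusted p of 0.677, 0.403 and 0.687. Gins1 measured 729, 664, 495, 699 and 686 in exposed embryos and 837 and 755 in controls, so that the exposed embryos lay below both controls. Exposed embryo 1 without NTD was the lowest, and without it the log2 fold change of Gins1 was -0.20. Gins2 and Gins3 were not analysed here.

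**Figure D2:**
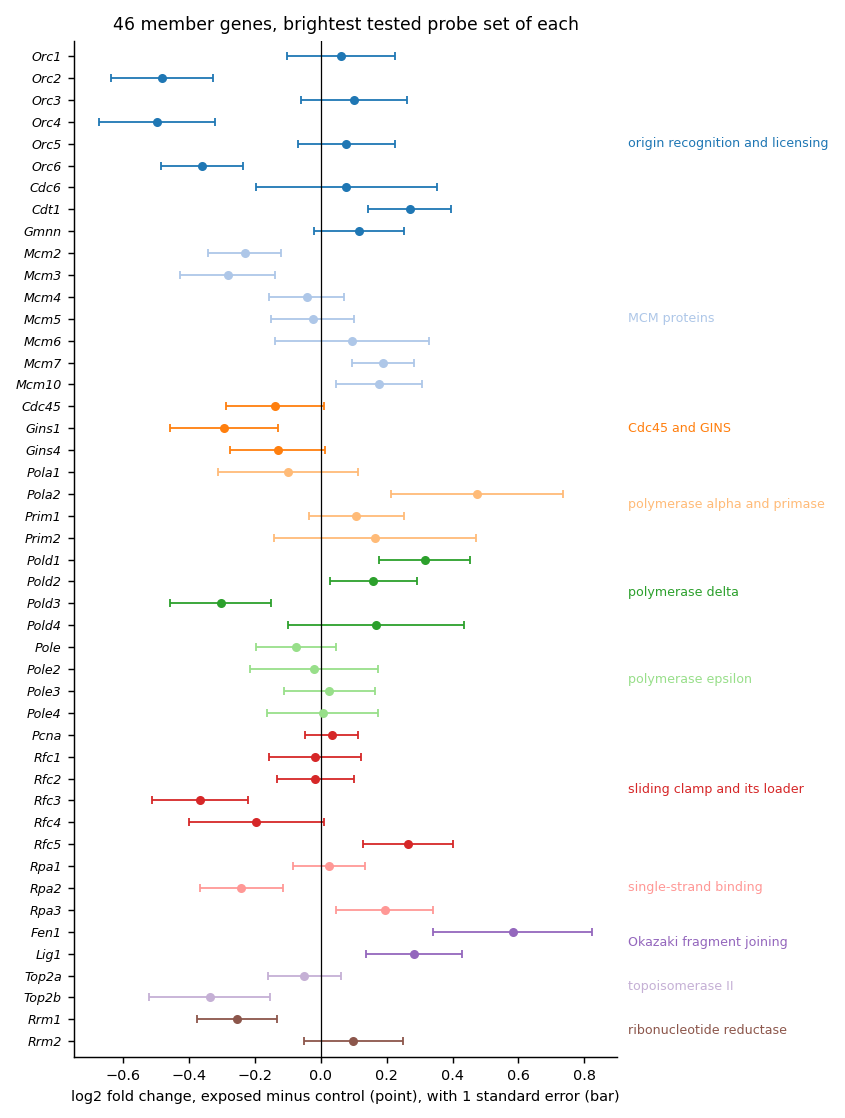
Log2 fold change of the brightest tested probe set of each of 46 member genes (x axis, exposed minus control), with 1 standard error as the bar and genes grouped by role and colour from top to bottom. The values run from -0.50 for Orc4 to 0.58 for Fen1, and in most roles genes stand on both sides of 0.

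Polymerase subunits stood on both sides of the controls. In polymerase alpha and primase, which start each strand, none of 6 probe sets was past an unadjusted p of 0.05, and the values ran from -0.10 to 0.47. The highest was Pola2, the B subunit, with 706, 1075, 867, 573 and 1233 in exposed embryos and 561 and 681 in controls (0.47 ± 0.26, adjusted p = 0.394), which overlapped. Pola1, the catalytic subunit, is X-linked and had 501, 641, 793, 578 and 420.2 in exposed embryos and 619.7 and 609 in controls (-0.10 ± 0.21, adjusted p = 0.858). On 1 probe set, Xist measured 3287, 12.7, 2763, 2616 and 1830.2 in exposed embryos and 12.7 and 24.1 in controls, and the 3 embryos with a low Xist signal had Pola1 signals within the range of the other 4. Of 6 polymerase delta probe sets, 1 was higher at an unadjusted p under 0.05: the catalytic subunit Pold1 (1448187_at) had 1093, 1284, 1227, 1135 and 1249 in exposed embryos and 839 and 1101 in controls (0.32 ± 0.14, adjusted p = 0.301 by limma). The groups overlapped through control 2, and the other Pold1 probe set stood at 0.03 ± 0.18. On its brightest probe set, the accessory subunit Pold3 lay lower in every exposed embryo (-0.30 ± 0.15, adjusted p = 0.359 by limma). Signals there were 404, 549, 516, 518 and 571 in exposed embryos and 614 and 642 in controls. The other Pold3 probe set overlapped between the groups (-0.20 ± 0.22).

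Pole3, a histone-fold subunit of polymerase epsilon, held the smallest p of the group on 1 probe set. On 1421015_s_at it had 560.0, 696, 523, 534 and 559.6 in exposed embryos, a mean of 574 ± 69.8 (SD, n = 5), against 911 and 1027 in controls, a mean of 969 ± 82.2 (SD, n = 2). The log2 fold change was -0.76 ± 0.15 (adjusted p = 0.0619 by limma), with no overlap. The brightest Pole3 probe set (1452743_at) did not show this, with 930.0, 962, 807, 924 and 1093 in exposed embryos and 929.5 and 914 in controls (0.03 ± 0.14, adjusted p = 0.948), and the dimmest (1459816_x_at) stood at 0.21 ± 0.22. In Affymetrix naming, the suffix _s_at marks probes that several transcripts share and _x_at probes that can cross-hybridise, so the first value cannot be assigned to Pole3 alone. Pole4, the histone-fold partner of Pole3, to which the study normalised its PCR measurements, had 577, 520.3, 412, 559 and 633 in exposed embryos and 550.2 and 516 in controls on its brightest probe set (0.01, 95% interval -0.37 to 0.38). Its other probe set gave -0.12, with a 95% interval of -0.43 to 0.19. The catalytic subunit Pole and the B subunit Pole2 stood at -0.08 ± 0.12 and -0.02 ± 0.19.

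Pcna had the smallest spread among the exposed embryos, relative to its mean, of all 81 members. The clamp had signals of 10772, 10624, 10896, 10523 and 10554 in exposed embryos, a mean of 10674 ± 157 (SD, n = 5), and 10561 and 10312 in controls, a mean of 10436 ± 176 (SD, n = 2). Its log2 fold change was 0.03, with a 95% interval of -0.15 to 0.21. Under quantile normalization its sign turned (-0.12). Within RFC, the ATPase complex that opens and loads the clamp, both probe sets of Rfc3 were lower at an unadjusted p under 0.05. Rfc3 had 1010.0, 884, 709, 864 and 834 in exposed embryos and 1125 and 1080.0 in controls on 1432538_a_at (-0.37 ± 0.15, adjusted p = 0.254). On 1423700_at it had 771, 807, 599, 766 and 539 in exposed embryos and 1018 and 1003 in controls (-0.55 ± 0.17, adjusted p = 0.172). Neither overlapped, which makes Rfc3 and Orc6 the 2 genes, of 8 with any probe set lower at an unadjusted p under 0.05, for which every tested probe set was so. The other loader subunits did not follow: Rfc1, Rfc2, Rfc4 and Rfc5 stood at -0.02, -0.02, -0.20 and 0.26. For Rfc5 the log2 fold change was 0.33 without exposed embryo 1 without NTD (adjusted p = 0.181). The RPA subunits Rpa1, Rpa2 and Rpa3 gave 0.03 ± 0.11, -0.24 ± 0.13 and 0.19 ± 0.15, with overlapping signals in each.

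**Figure D3:**
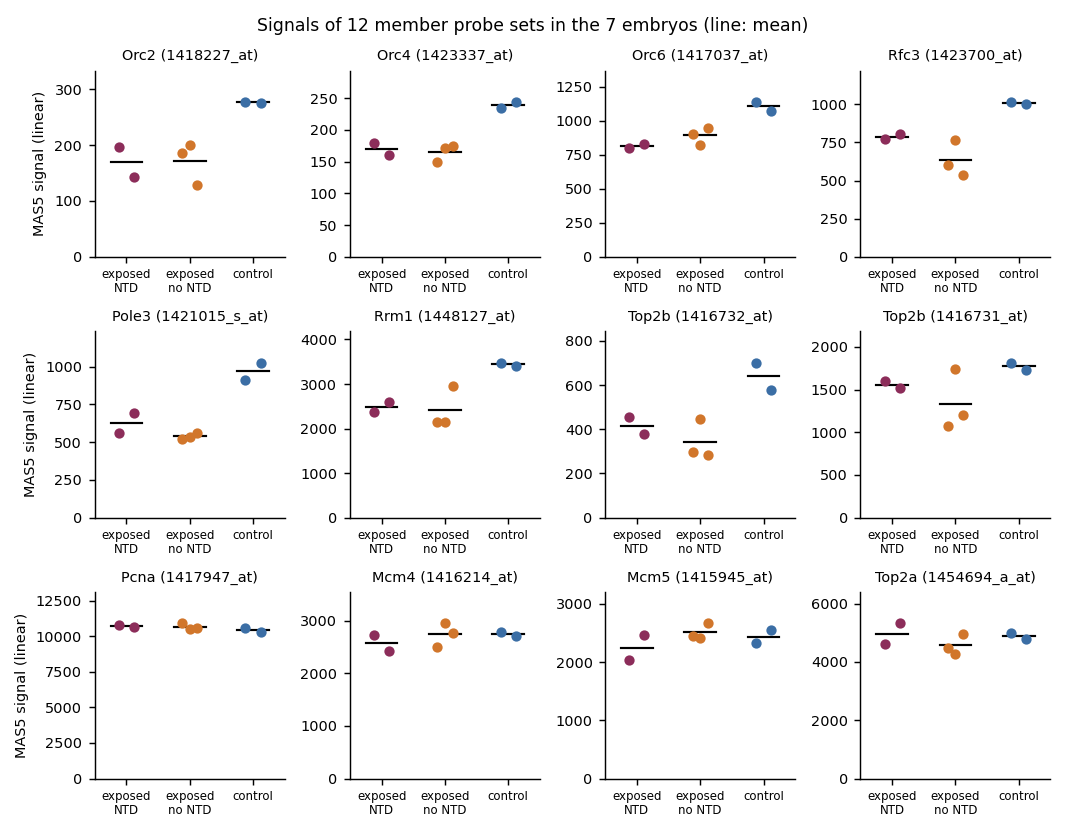
MAS5 signals (y axis, linear, from 0) of 12 member probe sets in exposed embryos with NTD, exposed embryos without NTD and controls, with 1 point an embryo and a line at each group's mean. In 7 of the upper 8 panels every exposed embryo lies below both controls, and in Top2b 1416731_at and the bottom row the groups overlap. The upper panels show dimmer probe sets of Orc2, Orc4, Rfc3, Pole3 and Rrm1, and the brightest ones of Pole3 and Rrm1 overlap. These panels do not represent the members: over all 81, 19.8% were lower in this way, beside 13.4% of all probe sets tested.

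Of the enzymes that finish Okazaki fragments, Lig1 lay above both controls in every exposed embryo, and Fen1 overlapped on both of its probe sets. Lig1, the replicative ligase, had 2189.5, 2552, 2165, 2084 and 2945 in exposed embryos and 1979 and 1914 in controls, with every exposed embryo higher (0.28 ± 0.15, adjusted p = 0.367). Fen1, the flap nuclease, was higher at an unadjusted p under 0.05 on 1436454_x_at, with 3775, 3146, 2335, 3788 and 2848 in exposed embryos and 1531 and 2850.4 in controls (0.58 ± 0.24, adjusted p = 0.272 by limma). The controls themselves lay far apart there, and leaving out control 1 or control 2 gave 0.13 or 1.03. On the other Fen1 probe set (1421731_a_at) the value was 0.02 ± 0.12.

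Top2b had the lowest values of the group, and Top2a had none like them. The topoisomerases II relieve tangles between DNA strands. Top2a is the form of dividing cells, and Top2b is prominent in cells that have left the cycle, neurons among them. Top2b is also among the genes the study listed from these embryos, so its values here are no independent evidence. On 1416732_at, Top2b had 456, 378, 299, 446 and 283 in exposed embryos, a mean of 372 ± 80.3 (SD, n = 5), against 702 and 579 in controls, a mean of 640.5 ± 86.9 (SD, n = 2). All exposed embryos lay below both controls (-0.80 ± 0.21, adjusted p = 0.117 by limma). On the dimmest probe set (1448458_at) it had 123, 47.5, 23.5, 96.6 and 12.6 in exposed embryos and 258 and 238 in controls (-2.49 ± 0.80, adjusted p = 0.178), where only the controls passed the filter on low signals. The brightest one (1416731_at) gave 1601, 1517, 1068, 1737 and 1204 in exposed embryos and 1817 and 1729 in controls, which overlap (-0.34 ± 0.18, adjusted p = 0.39). The summed signal of the neuronal markers given above moved in the same direction, with all exposed embryos below both controls, and its part in the Top2b values was not tested. Those markers include Dcx and Map2 (named Mtap2 in the study), which the study also listed from these embryos, so the sum is no independent evidence either. Top2a had 4629, 5323, 4479.8, 4258 and 4966 in exposed embryos and 4977 and 4793 in controls (-0.05, 95% interval -0.30 to 0.20).

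Ribonucleotide reductase, which makes deoxyribonucleotides, had lower values on some of its probe sets. Its large subunit Rrm1 had 2366, 2589, 2138, 2141 and 2956 in exposed embryos and 3482 and 3401 in controls on 1448127_at, without overlap (-0.51 ± 0.14, adjusted p = 0.133 by limma). The brightest Rrm1 probe set (1415878_at) stood at -0.25 ± 0.12 (adjusted p = 0.335), where exposed embryo 2 with NTD (3851) reached the controls (3888 and 3806). The small subunit Rrm2 had 3594, 3745, 3136, 3309 and 3924 in exposed embryos and 4250.4 and 4622 in controls on 1416120_at (-0.33 ± 0.12, adjusted p = 0.21). Its other probe sets overlapped between the groups and gave 0.10 ± 0.15 and -0.08 ± 0.12.

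**Figure D4:**
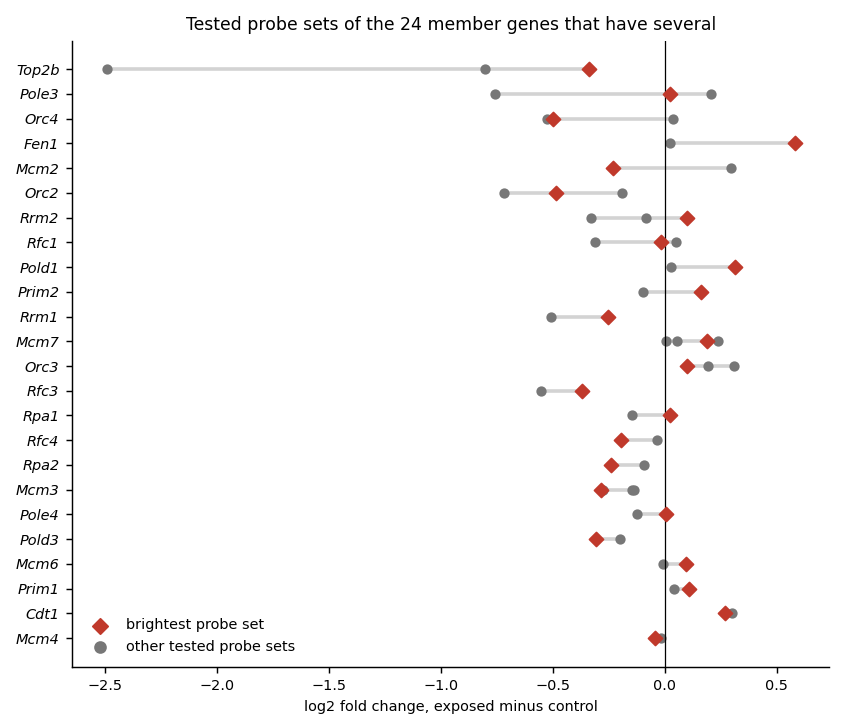
Log2 fold changes (x axis, exposed minus control) of all tested probe sets of the 24 member genes that have several, 1 gene a row, with the brightest as a red diamond and the others as grey points. The probe sets of Top2b, Pole3, Orc4, Fen1, Mcm2 and Orc2 spread by 0.5 or more, and those of the other 18 genes by less.

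Probe sets of 1 gene often disagreed. Of the 24 genes with several tested probe sets, 6 had probe sets that differed by a log2 fold change of 0.5 or more, and 9 had probe sets on both sides of 0. The spread was 2.16 for Top2b, with the probe set that passed the filter on controls alone at its low end, and 0.97 for Pole3. In Mcm2 the disagreement came with 1 embryo: the dimmer probe set (1434079_s_at) had 4097, 1763, 1046, 1656 and 2106 in exposed embryos and 1582 and 1547 in controls, a log2 fold change of 0.30 ± 0.38, and 0.03 without exposed embryo 1 with NTD, whose signal was 4097. Among all tested members, 14 carried the suffix _s_at or _x_at.

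No member was called between exposed embryos with and without NTD. limma called 0 of the 81 members and 0% of all tested probe sets at an adjusted p under 0.05. At an unadjusted p under 0.05, 1 member was higher, beside 1.64% of all probe sets, and 0 were lower, beside 1.38%. The 1 higher was Mcm2 on 1434079_s_at, at 4097 and 1763 in embryos with NTD and 1046, 1656 and 2106 in embryos without NTD (0.80 ± 0.35, adjusted p = 0.999 by limma). Those groups overlapped, and the brightest Mcm2 probe set stood at 0.04 ± 0.13. Both embryos with NTD lay above all 3 without for 9 members (11.1%), beside 7.58% of all probe sets, and below all 3 for 1 (1.23%), Rpa1 on 1437309_a_at, beside 8.49%. The median log2 fold change was 0.04 over the members and 0.00 over all probe sets. Next in the order of p came Mcm7 on 1416031_s_at, with 2839 and 3013 in embryos with NTD and 1903, 2404 and 2706 in embryos without (0.34 ± 0.16, adjusted p = 0.999). Rfc4 on 1424321_at had 1003 and 974 in embryos with NTD and 599, 956 and 737 without (0.40 ± 0.20, adjusted p = 0.999). Mcm3 on 1449705_x_at had 1258 and 1424 with NTD and 991, 1129.5 and 1185 without (0.28 ± 0.14, adjusted p = 0.999), and Rfc3 on 1423700_at had 771 and 807 with NTD and 599, 766 and 539 without (0.33 ± 0.17, adjusted p = 0.999). In each of these 4 the embryos with NTD lay above those without. The lowest of the 7 signals was that of exposed embryo 1 without NTD in Mcm7, Rfc4 and Mcm3, and that of exposed embryo 3 without NTD in Rfc3.

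Genes with and without the E2F motif in the promoter did not stand on opposite sides of the controls. Of the 15 member genes with the motif, 6 were below and 9 above 0 by their brightest probe set in exposed against control embryos, with a median log2 fold change of 0.06 and a range of -0.37 to 0.32. Of 24 without it, 11 were below and 13 above, with a median of 0.03 and a range of -0.50 to 0.58. Rfc3, whose 2 matches are printed above, was the lowest of the genes with the motif, and Pold1 the highest. For the CCAAT box, 14 of 25 genes with it were below 0 (median -0.02), and 3 of 14 without it (median 0.09).

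The wider S phase programme, in 6 lists of other genes, held no probe set called in exposed against control embryos, beside 0.172% of all tested probe sets. For each list count that follows, the shares over all tested probe sets were 8.52% lower and 7.63% higher at an unadjusted p under 0.05 by limma. Among 19 probe sets of further licensing and fork factors, 1 was lower and 0 higher at an unadjusted p under 0.05, with a median of -0.03. That was Tipin, a fork protection factor, with 1584, 1739, 1392, 1628 and 1767 in exposed embryos and 2008 and 1935 in controls (-0.29 ± 0.13, adjusted p = 0.299). Nucleotide supply had 2 of 34 lower and 0 higher (median 0.00). Deoxycytidine kinase (Dck) had 176, 282, 180.1, 143 and 255 in exposed embryos and 430.2 and 395 in controls on 1428838_a_at (-1.04 ± 0.25, adjusted p = 0.106), and Gart, of purine synthesis, stood at -0.64 ± 0.18 on 1424435_a_at (adjusted p = 0.142). Other probe sets of Dck gave -0.32 and -0.47, and those of Gart -0.15 and 0.21.

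Among 19 probe sets of chromatin assembly at the fork, 2 were lower and 2 higher (median 0.08). The histone chaperones Rbbp4 (1454875_a_at) and Supt16 (1449578_at) stood at -0.74 ± 0.15 and -1.10 ± 0.30, with adjusted p of 0.0659 and 0.132, and Dnmt1, the maintenance methyltransferase, at 0.73 ± 0.20 on 1435122_x_at (adjusted p = 0.133). Other probe sets gave 0.16 and -0.45 for Rbbp4, -0.01 for Supt16 and 0.29 for Dnmt1. The S phase regulators had 4 of 38 higher and 2 lower (median 0.02). Cdkn1a, which encodes the cyclin-dependent kinase inhibitor p21, had 349, 376, 432, 330.0 and 366 in exposed embryos and 209 and 238 in controls, all exposed embryos higher (0.73 ± 0.15, adjusted p = 0.0800 by limma). Like Top2b, Supt16 (named Supt16h in the study) and Cdkn1a are among the genes the study reported as altered, so their values here are no independent evidence. E2f3, a transcriptional activator of S phase genes, had 239, 183, 189.7, 169 and 154 in exposed embryos and 308 and 295 in controls (-0.70 ± 0.20, adjusted p = 0.138), all lower. The mitotic regulators had 2 of 31 higher and 0 lower (median 0.00), Foxm1 (0.52 on 1417748_x_at, with other probe sets at 0.12 and -1.49) and Incenp (0.41 on 1439436_x_at, with others at 0.34 and -0.20). The mismatch and excision repair genes had 7 of 32 lower and 1 higher, with a median of -0.12, and included Brca1 (1451417_at, -0.41 ± 0.14, adjusted p = 0.195), Exo1 (1418027_at, -0.38 ± 0.15, adjusted p = 0.246) and Lig3 (1431715_a_at, -3.05 ± 0.98, adjusted p = 0.177). On that Lig3 probe set, signals were 136, 12.5, 12.7, 63.9 and 14.8 in exposed embryos and 238 and 243 in controls. All exposed signals but the first lay below the 40th percentile of their array. Other probe sets of Brca1 gave 0.02, -0.48 and 0.26, of Exo1 -0.13, and of Lig3 -0.20, -0.67 and -0.18.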

How the data were processed

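RNA of 7 whole FVB embryos was hybridised to Affymetrix 430A 2.0 arrays (1 colour, 1 embryo each). The authors computed MAS5 signals, deposited as linear intensities, whose mean on each array is 500.2 once 2% of probe sets is trimmed from each end. The version of MAS5 was not given in the sources used here. No further normalization was applied in the main setting.

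Member probe sets were taken by the symbol of the array annotation. Of the 22690 probe sets, 20393 had 1 symbol, 691 several and 1606 none, and no member symbol needed updating through its gene ID. The 64 control probe sets were set aside. A probe set was tested when at least 2 of the 7 arrays gave a signal no lower than the 40th percentile of that array (14554 in all), and signals were floored at 1 before log2 was taken.

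The 5 exposed embryos were set against the 2 controls in limma 3.58.1 (R 4.3.3, trend of the spread with the signal), with Benjamini-Hochberg adjustment over all probe sets tested, and called at an adjusted p under 0.05. The contrast of NTD with no NTD came from a 3-group fit. Standard errors and 95% intervals of log2 fold changes are those of limma. Full values were set out for the 12 members of smallest p, for the 5 of smallest p in NTD against no NTD, for the brightest probe sets of Pcna, Mcm2 to Mcm7, Top2a and Gmnn, for Top2b, Pole4 and Pola1, for probe sets of a gene that differ by 0.5 or more, and for up to 3 probe sets of each further list; other members shown in full were chosen after their values were seen. The members, lists and tests were chosen with earlier results of these data known. The fit was tested on simulated data. The number of arrays limits the precision, and with 5 against 2 embryos no exact two-sided permutation p could fall below 0.048, so none is given.

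Alternatives were quantile normalization, median centring, a floor of 16, an offset of 50, no filter, a filter at the 60th percentile, no trend, array quality weights (statmod 1.5.0), the replicate block, other groupings, the methods' t-test, each embryo left out and, chosen after seeing the data, a term for embryos whose summed Xist signal was above that of Eif2s3y, Kdm5d and Uty. Promoters came from RefSeq. Other tools were Matplotlib 3.10.9, SciPy 1.17.1, NumPy 2.4.6 and pandas 2.3.3 in Python 3.11.15. Detection calls were not used, and the arrays of the study's other experiment were not analysed here.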

Additional observations from a re-analysis of the deposited data

Results flagged for a closer look

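Among the 5 exposed embryos, 10 of the 81 tested members had 1 embryo far from the other 4, by a gap to its nearest neighbour of more than 0.71 of the whole range. Chance gives such a gap in about 1 of 20 groups. The share over all tested probe sets was not computed, so the count is not read as particular to the members. Exposed embryo 1 without NTD was the distant one for 5 of them. Over all tested probe sets, this embryo had the lowest of the 7 signals for 20.7% and the highest for 23.2%.

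Cdc6 had 459 in exposed embryo 1 without NTD and 896 to 1073 in the other exposed embryos (gap of 0.787 of the range). Gins1 had 495 there and 664 to 729 in the others (0.759), and Mcm3 (1420028_s_at) had 1907 and 2510 to 2635 (0.849). The same embryo was the highest for Cdt1 (1424144_at), with 2601 and 1863 to 2007 in the others (0.777), and for Pold4, with 377 and 179 to 218 (0.733).

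Exposed embryo 3 without NTD was the highest for Fen1 (1421731_a_at), with 1572 and 1297 to 1348 in the others (0.799), and for Rpa2 (1454011_a_at), with 1144 and 969 to 1009 (0.752). Exposed embryo 2 without NTD was the lowest for Pole4 (1423372_at), with 378 and 452 to 483 (0.727). Exposed embryo 1 with NTD was the highest for Rpa3, with 1137 and 914 to 928 (0.934), and exposed embryo 2 with NTD for Pole3 (1421015_s_at), with 696 and 523 to 560.0 (0.76).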

How the results depend on the processing

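No member was called in exposed against control embryos under any alternative except array quality weights, which called 3: Pole3 on 1421015_s_at (-0.72, adjusted p = 0.0208), Rrm1 on 1448127_at (-0.50, adjusted p = 0.0389) and Top2b on 1416732_at (-0.73, adjusted p = 0.045). Over all alternatives their adjusted p ran to 0.701, 0.798 and 0.721. The same weights, 0.427 for exposed embryo 1 without NTD and 1.48 for each control, called 491 probe sets of the array, against 25 in the main setting. Counts of all probe sets called were 50 with the offset of 50, 18 with quantile normalization, 17 at the 60th percentile, 8 with no filter, 10 with no trend, 14 with the fit of 3 groups, and 0 with the methods' t-test, the replicate block or the term for sex-chromosome transcripts. Leaving out 1 embryo gave 0 to 58, with 0 or 1 when a control was dropped, 58 when it was exposed embryo 1 with NTD and 40 when it was exposed embryo 1 without NTD.

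The term for sex-chromosome transcripts, chosen after seeing the data, gave 3 members lower at an unadjusted p under 0.05, against 12 in the main setting, and a median of -0.00904. Leaving out each embryo in turn gave 6 to 15 members lower at an unadjusted p under 0.05, with 6 without either control and 15 without exposed embryo 3 without NTD, and 0 to 4 higher. The count higher was 4 with no filter, the replicate block or the methods' t-test, 7 with array quality weights, 1 with no trend or the fit of 3 groups and 0 with only exposed embryos without NTD or with the term for sex-chromosome transcripts.

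The labels number the embryos, but same-numbered embryos did not vary together (correlations of -0.25 to 0.03), so the numbers are not taken as pairs. With the replicate block, in which exposed embryo 3 without NTD has a number of its own, 0 members were called and 11 were lower and 4 higher at an unadjusted p under 0.05, with a median log2 fold change of -0.03. For embryos with and without NTD the block gave 0 called and a median of 0.09.

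Of 695 values of named members computed again, 36 changed sign, all of them for 15 probe sets whose main value was not called. With the replicate block the values were -0.0272 for Fen1 (1421731_a_at), -0.071 for Mcm6, -0.0154 for Mcm7 (1416031_s_at), 0.013 for Pola1, -0.0289 for Pole3 (1452743_at) and -0.0549 for Pole4 (1423371_at). With only exposed embryos without NTD they were -0.0234 for Mcm2 (1434079_s_at), 0.0411 for Mcm5, -0.128 for Mcm7 (1416031_s_at) and -0.0174 for Pole4 (1423371_at), and Pcna was -0.116 under quantile normalization. With the term for sex-chromosome transcripts they were -0.0363 for Gmnn, 0.113 for Mcm3 (1449705_x_at), 0.0176 for Mcm5, -0.00904 for Orc4 (1423336_at), 0.0629 for Pola1, -0.0339 for Pole4 (1423371_at), 0.0218 for Rfc4 and 0.124 for Top2a. With each embryo left out, the values ran from -0.0272 to 0.0421 for Fen1 (1421731_a_at), -0.0917 to 0.0422 for Mcm5, -0.071 to 0.192 for Mcm6, -0.0541 to 0.112 for Mcm7 (1416031_s_at), -0.0593 to 0.107 for Orc4 (1423336_at), -0.216 to 0.013 for Pola1, -0.0289 to 0.0807 for Pole3 (1452743_at), -0.00487 to 0.422 for Pole3 (1459816_x_at) and -0.0549 to 0.10 for Pole4 (1423371_at). The cause was not tested.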
